A study of Homo sapiens with 4 samples.

Results

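The genes described here are a set of epithelial junction components and regulators of the epithelial to mesenchymal transition (EMT) that were listed by name. Of the 37 genes in the set, 33 had a row among the 32973 genes of the deposited table, and TWIST1, TWIST2, GRHL2 and OVOL1 were not analysed here. RNA sequencing gave their transcript levels in T24T, a tumorigenic derivative of the human bladder cancer line T24, and in UMUC3, another human bladder cancer line. The groups were T24T stably transfected with a plasmid that overexpresses BCUC-1 (circular RNA hsa_circ_0001361), T24T with the vector, UMUC3 with the BCUC-1 plasmid and UMUC3 with the vector. All were grown in the same serum-containing medium. Each of the 4 groups held 1 library, so a difference between BCUC-1 and vector within a line compares 2 libraries and has no replicate check, and whether the transfected cells were pools or clones is not given in the sources used here. The purpose stated for the study was a screen for genes downstream of BCUC-1, and the gene-level table gives no level for the circle itself.

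Epithelial cells are held together by adherens junctions, in which cadherins bind catenins, by tight junctions built from claudins, occludin and scaffold proteins, and by desmosomes, in which desmosomal cadherins are tied to keratin through plakoglobin, plakophilins and desmoplakin. In an EMT, repressors of the ZEB, SNAI and TWIST families lower the transcription of junction genes, while vimentin and other mesenchymal proteins increase. ESRP, GRHL and OVOL proteins act on the epithelial side. In bladder cancer, low E-cadherin and high ZEB1 are known features of lines with mesenchymal morphology.

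The libraries held 23588847 (T24T BCUC-1), 23679229 (T24T vector), 22730112 (UMUC3 BCUC-1) and 26497894 (UMUC3 vector) assigned reads. Levels are in RPKM, reads per kilobase of exon and per 1000000 assigned reads. Of markers of the labelled tissue, KRT8 stood at 146 and 133 RPKM in T24T (BCUC-1, vector) and at 13.2 and 13.0 RPKM in UMUC3, and KRT18 at 88.2 and 81.5 RPKM in T24T and 42.1 and 39.9 RPKM in UMUC3. Of 15 urothelial markers with a row, 5 reached 1 RPKM in each T24T library and 4 in each UMUC3 library. On that list 9 markers were under 1 RPKM in every library. The median of the 15 was 0.341 (T24T BCUC-1), 0.371 (T24T vector), 0.106 (UMUC3 BCUC-1) and 0.104 RPKM (UMUC3 vector). Of the markers of fibroblasts (7 with a row), leukocytes (4) and endothelium (6), none reached 1 RPKM in a library. As in any bulk RNA sample, fewer cells with a transcript and less transcript per cell cannot be told apart.

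Differences between the lines were large for many of these genes, and those between BCUC-1 and vector were small. In each T24T library 19 of the 33 genes reached 1 RPKM, and in each UMUC3 library 15 did, against 43.8% (T24T BCUC-1), 44.5% (T24T vector), 42.5% (UMUC3 BCUC-1) and 42.0% (UMUC3 vector) of all listed genes. Of 6 desmosome genes 5 were higher and 1 lower in T24T. Of these, DSP, DSC2 and PKP2 reached 1 RPKM in T24T alone and PKP3 in UMUC3 alone. Being tested thus already implied their direction, and the count supports nothing. Of all genes tested in the fit below, 40.8% were higher and 29.6% lower in T24T. CLDN1, CLDN4, F11R and JUP were higher, and so, by a small difference, was the mesenchymal cadherin CDH2. ZEB1, ZEB2, VIM and SNAI1 were lower, and so were the junction genes CTNNA1 and TJP1. The classical cadherin of epithelia, CDH1, had at most 1 read in a library. T24T was set against UMUC3 with limma on log2(RPKM + 1), with BCUC-1 or vector as a second term and 1 residual degree of freedom. The 2 libraries of a line carried different plasmids and were not replicates of a condition, and the p-values take most of their variance estimate from other genes.

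In that fit 21 of the 33 genes reached 1 RPKM in at least 2 libraries and were tested. The difference had a Benjamini-Hochberg adjusted p under 0.05 for 12 genes higher and 7 lower in T24T, where 70.4% of all 15415 genes tested passed (40.8% higher and 29.6% lower in T24T). The difference was at least 2-fold on that scale for 9 of them higher and 3 lower, against 10.2% and 7.73% of all genes tested. Of the 21, 8 reached 1 RPKM in one line alone (JUP, CLDN4, F11R, DSP, DSC2, PKP2, PKP3 and ZEB2), so their passing the filter already implied a difference. The p-values of these 8 support nothing, and the counts above hold these genes as well. Of the genes named below from further lists, CLDN16, PPL, SPINT2, AP1M2, KLF5 and SPARC passed in the same way, and their p-values support nothing. The counts given for the further lists hold such genes as well. The other 13 of the 21 reached 1 RPKM in both lines, and 11 of them passed. Among these, CLDN1, OCLN and DSG2 were at least 2-fold higher in T24T, and ZEB1 and VIM at least 2-fold lower. With no filter, 20 of the 33 genes passed in limma, against 30.0% of all genes. The median difference of the 21 was 0.35 on the log2 scale and that of all genes tested was 0.10. The median of all genes moved with scaling, to -0.0070 with limma-voom on recovered reads with TMM factors (trimmed mean of M values).

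**Figure D1:**
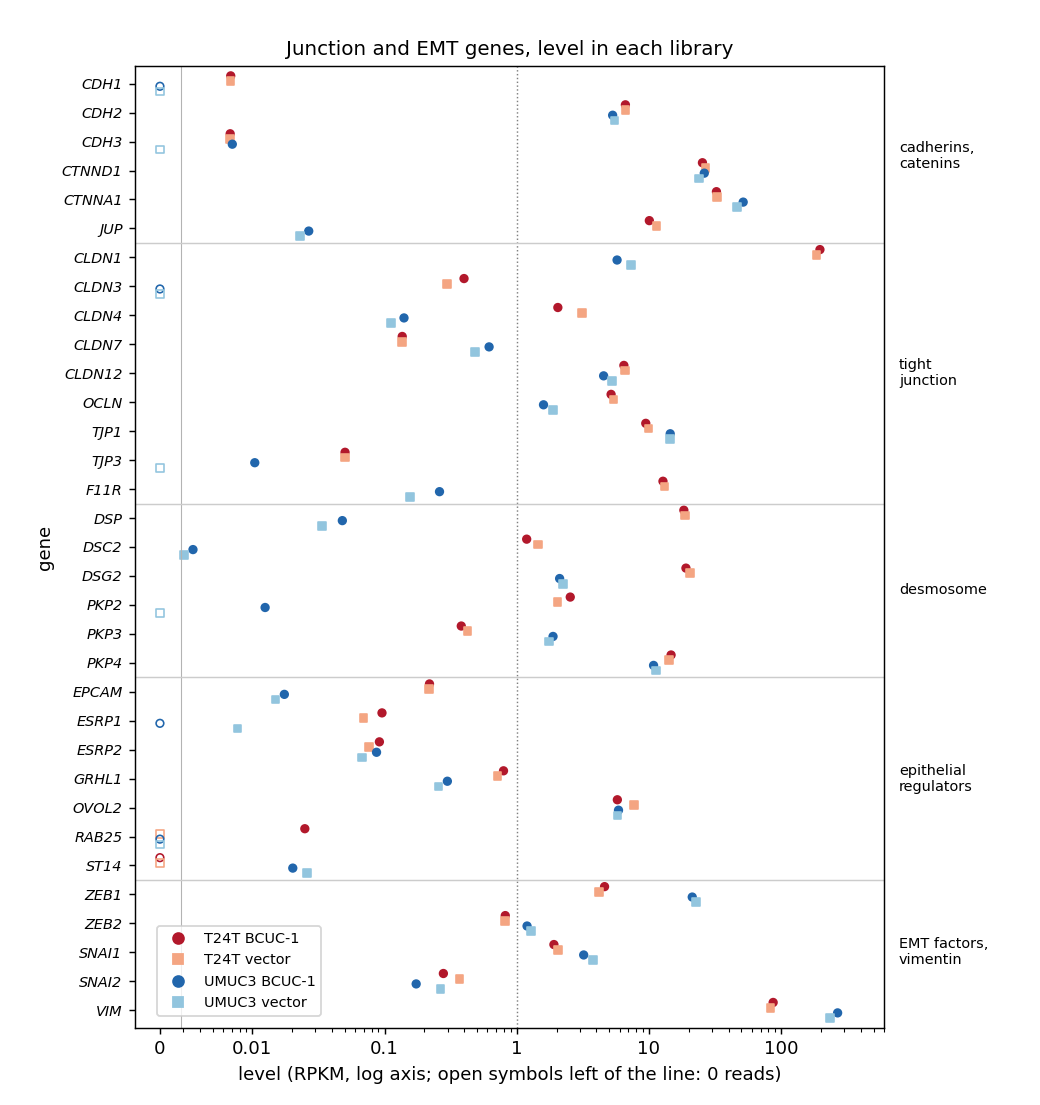
Level of each of the 33 genes (RPKM, log axis) in T24T BCUC-1, T24T vector, UMUC3 BCUC-1 and UMUC3 vector, 1 symbol per library, grouped by role. Open symbols left of the grey line had 0 reads, and the dotted line marks 1 RPKM. CLDN1 runs from 197 RPKM in T24T BCUC-1 to 5.74 RPKM in UMUC3 BCUC-1, while both libraries of a line lie close together for most genes above 1 RPKM.

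CDH1 encodes E-cadherin, the calcium-dependent adhesion molecule of epithelia. It had 1 read in T24T BCUC-1, 1 read in T24T vector, and 0 reads in UMUC3 BCUC-1 and in UMUC3 vector. A count of 0 allows up to 3 reads, which for CDH1 is 0.0214 RPKM in UMUC3 BCUC-1 and 0.0183 RPKM in UMUC3 vector. CDH3, or P-cadherin, a cadherin of basal epithelium, had 1 read in T24T BCUC-1, T24T vector and UMUC3 BCUC-1 and 0 in UMUC3 vector. No difference in either gene was detectable at this depth.

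CDH2 encodes N-cadherin, the cadherin of mesenchymal and neural cells, and had the highest level of the 3 classical cadherins in every library. It stood at 6.64 RPKM in T24T BCUC-1, 6.64 in T24T vector, 5.31 in UMUC3 BCUC-1 and 5.50 in UMUC3 vector. Both T24T libraries lay above both UMUC3 libraries, with a log2 difference of 0.25 (SE 0.089) and a limma adjusted p of 0.0382. The limma adjusted p was 0.175 with quantile normalization and 0.147 with limma-voom, so the call depended on scaling.

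The catenins that bind classical cadherins were abundant in every library. CTNNA1, or alpha-catenin, which links the complex to actin, stood at 32.4 (T24T BCUC-1), 32.9 (T24T vector), 51.6 (UMUC3 BCUC-1) and 46.2 RPKM (UMUC3 vector). It was lower in T24T, with a log2 difference of -0.57 (SE 0.073, limma adjusted p = 0.000503). CTNND1, or p120 catenin, which stabilises cadherins at the membrane, stood at 25.4, 26.8, 26.2 and 23.8 RPKM in the same order. Its line difference was 0.059 (limma adjusted p = 0.528), the libraries of the lines overlapped, and the sign turned with scaling to equal medians (-0.036). CTNND1 shares 321 exon bases with the read-through gene TMX2-CTNND1, and reads there cannot be assigned to one of them.

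JUP encodes plakoglobin, a catenin of both adherens junctions and desmosomes. It stood at 10.1 RPKM (1174 reads) in T24T BCUC-1 and 11.4 RPKM (1336 reads) in T24T vector, against 0.0267 RPKM (3 reads) in UMUC3 BCUC-1 and 0.0229 RPKM (3 reads) in UMUC3 vector. With the reads of both libraries of a line summed, the ratio of reads scaled to library depth, T24T over UMUC3, was 436 (exact 95% interval 200 to 1188). Such intervals hold no more than counting error, and PCR copies are not independent molecules. Limma gave a log2 difference of 3.52 (SE 0.10, adjusted p = 1.39e-06), a scale on which the added 1 RPKM understates differences of low genes.

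Of the other adherens junction genes on the list for that junction, 14 of 15 had a row and 7 were tested. Relative to UMUC3, 2 were higher in T24T, 4 lower and 1 did not pass, where 40.8% of all genes tested were higher and 29.6% lower. The most abundant were CTNNB1, beta-catenin, with 37.5 and 37.03 RPKM in T24T (BCUC-1, vector) and 37.1 and 38.2 RPKM in UMUC3, which did not pass (limma adjusted p = 0.847). The actin linkers VCL, vinculin, and MLLT4, afadin, had log2 differences of -0.59 and -0.63 (limma adjusted p = 0.000405 and 0.000392).

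With JUP, desmosome genes gave the widest gaps between the lines among the 33 genes. DSP encodes desmoplakin, which anchors keratin filaments, and stood at 18.4 (T24T BCUC-1) and 18.7 RPKM (T24T vector), against 0.0479 (UMUC3 BCUC-1) and 0.0337 RPKM (UMUC3 vector). The ratio of summed reads, T24T over UMUC3, was 460.0 (298 to 753), from 8834 against 20 reads, and limma gave 4.23 (SE 0.097, adjusted p = 7.25e-07). DSG2, a desmoglein of simple epithelia, stood at 19.1, 20.4, 2.11 and 2.24 RPKM in T24T BCUC-1, T24T vector, UMUC3 BCUC-1 and UMUC3 vector, a ratio of 9.05 (8.35 to 9.82) and a limma log2 difference of 2.71 (SE 0.085, adjusted p = 1.77e-06). In UMUC3 the desmoglein transcript was above 1 RPKM while that of the plaque protein DSP was below 0.05 RPKM.

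DSC2, the partner desmocollin, stood at 1.19 (T24T BCUC-1) and 1.45 RPKM (T24T vector), with 347 and 424 reads, against 1 read in UMUC3 BCUC-1 and 1 in UMUC3 vector. Its ratio was 401 (111 to 3321). PKP2, a plakophilin that recruits desmoplakin, stood at 2.54 and 2.04 RPKM in T24T BCUC-1 and T24T vector, with 422 and 340 reads, against 2 reads in UMUC3 BCUC-1 and 0 in UMUC3 vector. Its ratio was 397 (109 to 3282). Both reached 1 RPKM in T24T alone, so their limma adjusted p of 5.64e-05 for DSC2 and 1.66e-05 for PKP2 support nothing further.

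The other plakophilins did not share that pattern. PKP3 was lower in T24T, at 0.381 (T24T BCUC-1) and 0.424 RPKM (T24T vector) against 1.88 (UMUC3 BCUC-1) and 1.75 RPKM (UMUC3 vector), with a limma log2 difference of -1.01 (SE 0.096, adjusted p = 0.000129). PKP4, a p120-related protein found at several junctions, was close between the lines, at 14.7, 14.2, 10.8 and 11.3 RPKM in the same order of libraries (log2 difference 0.36, SE 0.078, limma adjusted p = 0.00576). PKP4 shares 418 exon bases with the antisense gene AC005042.4, and the sources used here do not state that the counting used strand.

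Of 9 further desmosome genes on the fixed list, 4 had a row. PPL, periplakin, which links desmosomes to intermediate filaments, stood at 15.4 and 17.5 RPKM in T24T (BCUC-1, vector) and 0.0343 and 0.0295 RPKM in UMUC3, a ratio of 519 (297 to 1006) with a limma adjusted p of 8.84e-07. PERP, a tetraspan desmosome protein and p53 target, was lower in T24T, at 17.2 and 17.1 RPKM against 22.8 and 25.7 RPKM in UMUC3 (log2 difference -0.48, limma adjusted p = 0.00151). DSC1 reached 0.0397 RPKM at most.

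ZEB and SNAI proteins bind E-box sequences with the letters CACCTG. Whether they act on these genes here was not tested. Promoters of genes at least 2-fold higher in T24T are shown, 7 of 9 such genes. The promoters were taken from RefSeq (GRCh38.p14), which held 21 of the 37 genes, with CDH1, F11R and PKP2 not among them. Each is given as the 250 bases before the transcript start, 5′ to 3′ on the gene's strand. Capitals mark CACCTG or its reverse complement CAGGTG. DSP (chr6:7541421-7541670, plus strand) and DSG2 (chr18:31497927-31498176, plus strand) held 2 each, and DSC2 (chr18:31102422-31102671, minus strand) and OCLN (chr5:69492297-69492546, plus strand) held 1 each. CLDN1 (chr3:190322447-190322696, minus strand), CLDN4 (chr7:73830746-73830995, plus strand) and JUP (chr17:41786712-41786961, minus strand) held none.
DSP: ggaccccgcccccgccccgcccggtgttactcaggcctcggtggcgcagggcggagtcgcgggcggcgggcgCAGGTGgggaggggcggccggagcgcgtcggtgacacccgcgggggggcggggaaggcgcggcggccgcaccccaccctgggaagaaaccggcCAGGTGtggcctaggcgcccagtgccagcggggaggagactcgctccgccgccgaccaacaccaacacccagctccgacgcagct
DSG2: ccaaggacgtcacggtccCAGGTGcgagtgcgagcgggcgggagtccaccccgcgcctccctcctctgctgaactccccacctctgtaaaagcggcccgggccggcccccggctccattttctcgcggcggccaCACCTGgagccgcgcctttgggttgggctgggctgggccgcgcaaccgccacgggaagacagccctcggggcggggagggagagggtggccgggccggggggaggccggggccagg
DSC2: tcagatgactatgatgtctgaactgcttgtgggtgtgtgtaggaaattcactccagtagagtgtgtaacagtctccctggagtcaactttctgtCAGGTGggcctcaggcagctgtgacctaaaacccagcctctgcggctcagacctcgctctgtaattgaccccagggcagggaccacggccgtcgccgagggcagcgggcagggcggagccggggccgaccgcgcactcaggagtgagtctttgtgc
CLDN1: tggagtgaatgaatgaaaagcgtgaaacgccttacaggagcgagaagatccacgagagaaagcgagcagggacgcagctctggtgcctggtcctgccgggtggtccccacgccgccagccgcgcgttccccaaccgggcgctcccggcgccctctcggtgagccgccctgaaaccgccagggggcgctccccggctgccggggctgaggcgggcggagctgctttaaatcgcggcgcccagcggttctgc
CLDN4: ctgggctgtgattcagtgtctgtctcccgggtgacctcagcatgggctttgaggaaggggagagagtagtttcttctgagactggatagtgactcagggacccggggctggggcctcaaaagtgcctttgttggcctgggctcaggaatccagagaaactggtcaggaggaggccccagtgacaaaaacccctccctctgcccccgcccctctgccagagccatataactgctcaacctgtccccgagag
OCLN: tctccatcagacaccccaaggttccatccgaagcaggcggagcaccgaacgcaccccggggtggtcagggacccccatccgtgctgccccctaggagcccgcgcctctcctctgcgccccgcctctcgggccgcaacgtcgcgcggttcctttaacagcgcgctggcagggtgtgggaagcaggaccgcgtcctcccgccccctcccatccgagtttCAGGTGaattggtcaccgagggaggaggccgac
JUP: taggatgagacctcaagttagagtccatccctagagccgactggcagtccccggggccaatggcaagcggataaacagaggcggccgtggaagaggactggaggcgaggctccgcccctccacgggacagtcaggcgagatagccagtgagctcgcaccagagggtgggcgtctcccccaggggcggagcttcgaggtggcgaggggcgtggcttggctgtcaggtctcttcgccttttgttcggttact
In DSP the letters began 178 and 85 bases before the start, in DSG2 232 and 116 bases, in DSC2 156 bases and in OCLN 33 bases.

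Over the 250 bases, 7 of the 21 promoters (33.3%) held CACCTG on either strand, against 17.5% of all 35116 promoters of that length. The 21 hold only the first promoter listed for each gene, while the 35116 were not reduced in that way, so the shares are not strictly comparable. The others with CACCTG were RAB25, TJP1 and ZEB1, and of these TJP1 and ZEB1 were lower in T24T. The wider E-box CANNTG, which includes CACCTG, was in 47.6% of the 21 and 61.8% of all promoters. A match describes letters in the window and is not a measured binding site.

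**Figure D2:**
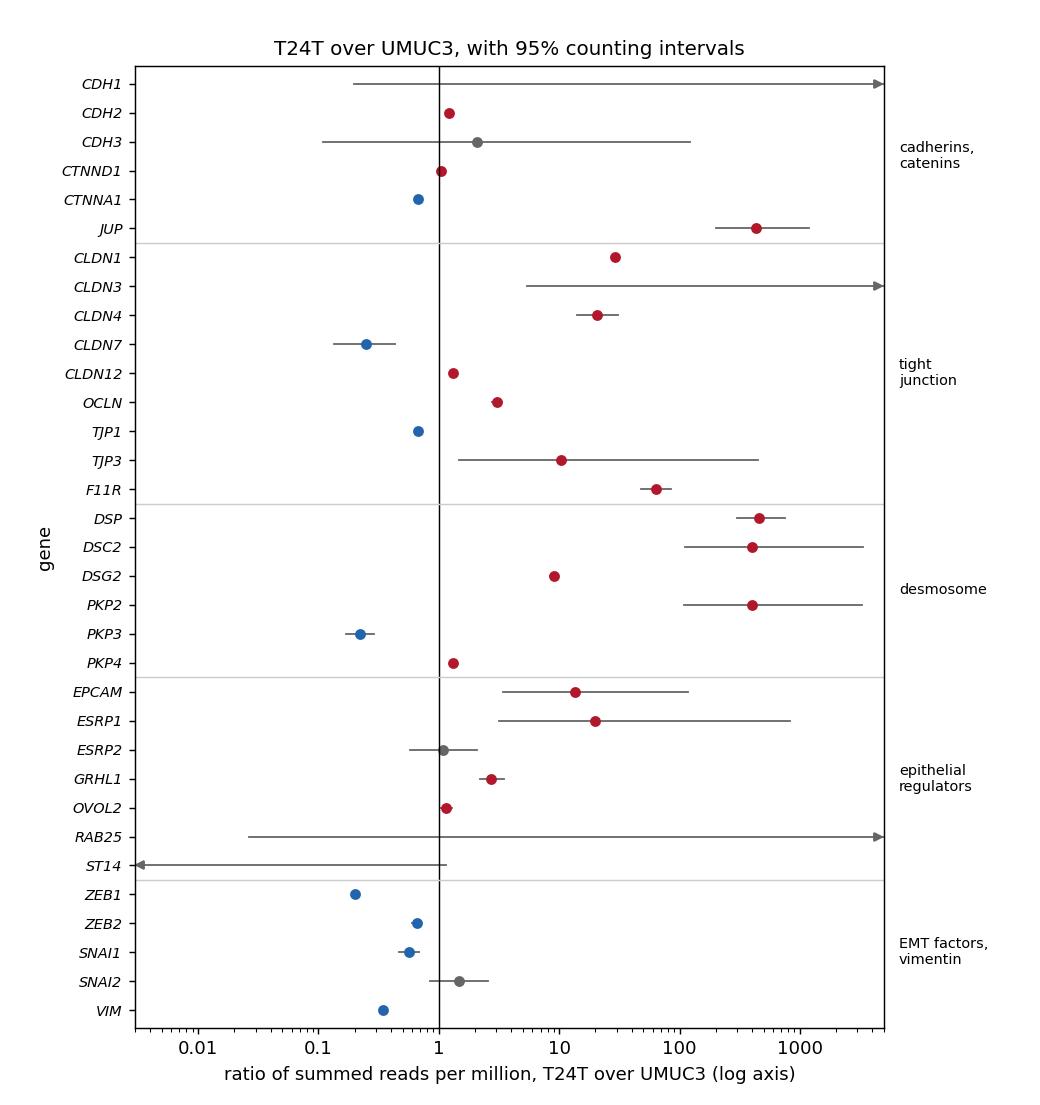
Ratio of summed reads scaled to library depth, T24T over UMUC3 (log axis), for each gene, with the exact 95% interval for counting error as a bar. Red points have an interval above 1, blue points below 1 and grey points across 1, and a bar with an arrow and no point belongs to a gene at 0 reads in one line. JUP, DSP, DSC2 and PKP2 lie between 397 and 460.0, and ZEB1, VIM, PKP3 and CLDN7 between 0.199 and 0.341.

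Among tight junction genes, CLDN1 had the highest level of the 33 genes in both T24T libraries. It encodes a barrier-forming claudin that seals the space between epithelial cells. It stood at 197 (T24T BCUC-1) and 186 RPKM (T24T vector), against 5.74 (UMUC3 BCUC-1) and 7.35 RPKM (UMUC3 vector). The ratio was 28.9 (27.3 to 30.7), and limma gave 4.68 (SE 0.10, adjusted p = 5.58e-07). CLDN4, a claudin that limits sodium passage, stood at 2.05, 3.11, 0.140 and 0.112 RPKM in T24T BCUC-1, T24T vector, UMUC3 BCUC-1 and UMUC3 vector, a ratio of 20.6 (14.2 to 31.0, limma adjusted p = 5.78e-05).

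CLDN3 was low, with 12 reads in T24T BCUC-1, 9 in T24T vector and 0 in each UMUC3 library. The exact 95% interval of the CLDN3 ratio, T24T over UMUC3, began at 5.42. CLDN7 went the other way, with 8 and 8 reads in T24T (BCUC-1, vector) against 35 and 32 reads in UMUC3, a ratio of 0.249 (0.135 to 0.434). CLDN7 shares 269 exon bases with RP1-4G17.5, a gene at 47.8 to 74.1 RPKM, and how shared reads were counted is not known. CLDN3 and CLDN7 were below 1 RPKM in every library and outside the limma test with a filter.

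CLDN12, a claudin without the usual scaffold-binding end, stood at 6.46, 6.60, 4.54 and 5.28 RPKM in the order above (limma log2 difference 0.35, SE 0.094, adjusted p = 0.0137). That call was lost with quantile normalization (limma adjusted p = 0.0631). CLDN12 shares exon bases with GTPBP10 and CDK14. OCLN, or occludin, a membrane protein of tight junctions, stood at 5.17 and 5.40 RPKM in T24T (BCUC-1, vector) and 1.59 and 1.88 RPKM in UMUC3, a log2 difference of 1.20 (SE 0.099, limma adjusted p = 6.83e-05).

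F11R encodes JAM-A, an adhesion molecule of tight junctions. It stood at 12.8 and 13.1 RPKM in T24T BCUC-1 and T24T vector, against 0.261 and 0.156 RPKM in UMUC3 BCUC-1 and UMUC3 vector. The ratio was 63.3 (48.0 to 85.2), with a limma log2 difference of 3.53 (SE 0.10, adjusted p = 1.35e-06). The same-strand gene RP11-544M22.13 shares 1853 exon bases with it and was itself listed with 827 (T24T BCUC-1), 928 (T24T vector), 10 (UMUC3 BCUC-1) and 10 reads (UMUC3 vector), so some reads may be counted for both. The scaffold gene TJP1, or ZO-1, which ties claudins to actin, was lower in T24T at 9.46, 9.90, 14.5 and 14.4 RPKM in the order above, with a log2 difference of -0.53 (SE 0.078, limma adjusted p = 0.00091). TJP3, or ZO-3, a scaffold of epithelia, had 5 and 5 reads in T24T against 1 and 0 in UMUC3.

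Of 26 other tight junction genes listed, 25 had a row and 12 were tested, of which 8 were higher and 3 lower in T24T, and all 8 higher ones differed at least 2-fold. Of all genes tested 40.8% were higher and 29.6% lower in T24T, and 10.2% were at least 2-fold higher. CLDN16, a claudin known for magnesium reabsorption in the kidney, stood at 33.7 and 34.0 RPKM in T24T (BCUC-1, vector) and 0.0737 and 0.0632 RPKM in UMUC3 (limma adjusted p = 3.97e-07). The polarity scaffold PARD3 and the occludin relative MARVELD1 were lower in T24T, with log2 differences of -0.79 and -1.03 (limma adjusted p = 0.000113 and 8.63e-05).

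Epithelial surface and regulatory genes were low in both lines, apart from OVOL2. EPCAM, an epithelial adhesion molecule, had 13 and 13 reads in T24T (BCUC-1, vector) and 1 and 1 in UMUC3, a ratio of 13.5 (3.39 to 118). The splicing regulators that set epithelial exons were also near the floor. ESRP1 had 11 and 8 reads in T24T against 0 and 1 in UMUC3, and ESRP2 had 12 and 10 against 11 and 10. ESRP2 shares 149 exon bases with NFATC3 on the opposite strand and 35 with RP11-96D1.11 on the same strand. How shared reads were counted is not known. RAB25, a GTPase of apical recycling, had 1 read in T24T BCUC-1 and 0 in the other libraries. ST14, or matriptase, an epithelial membrane protease, had 0 reads in both T24T libraries against 2 and 3 in UMUC3.

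GRHL1, a grainyhead factor that activates junction genes, stood at 0.794 and 0.717 RPKM in T24T and 0.299 and 0.256 RPKM in UMUC3 (BCUC-1 and vector in each). The ratio was 2.74 (2.19 to 3.45), below the level tested in limma. OVOL2, a zinc finger repressor of ZEB1, stood at 5.77 and 7.73 RPKM in T24T and 5.89 and 5.80 RPKM in UMUC3. Its levels overlapped between the lines and its difference did not pass (0.17, SE 0.12, limma adjusted p = 0.230). OVOL2 shares 59 exon bases with SNX5, a gene at 15.6 to 21.9 RPKM. Of 18 further epithelial genes listed, 17 had a row and 7 were tested, of which 5 were higher and 2 lower in T24T. Of all genes tested 40.8% were higher and 29.6% lower. On this list 5 genes reached 1 RPKM in each T24T library and 2 in each UMUC3 library. Passing the filter thus already implied that split, and the counts support nothing. SPINT2, an inhibitor of matriptase and related proteases, stood at 47.1 and 48.4 RPKM in T24T against 0.0677 and 0.0798 RPKM in UMUC3, a ratio of 643 (411 to 1068, limma adjusted p = 3.3e-07). AP1M2, the epithelial clathrin adaptor subunit, and KLF5, a Kruppel-like factor of epithelia, were also higher in T24T, with log2 differences of 2.44 and 1.19 (limma adjusted p = 3.97e-06 and 6.45e-05).

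Of the EMT repressors and vimentin, 5 genes had a row, and the 4 that were tested were lower in T24T, as were 29.6% of all genes tested. Of these, ZEB2 reached 1 RPKM in UMUC3 alone, so its passing the filter already implied that direction. ZEB1, a zinc finger repressor of junction genes, stood at 4.62 (T24T BCUC-1) and 4.18 RPKM (T24T vector), against 21.3 (UMUC3 BCUC-1) and 22.8 RPKM (UMUC3 vector). It was lower in T24T by a log2 difference of -2.09 (SE 0.089, limma adjusted p = 4.73e-06), and the ratio of summed reads, UMUC3 over T24T, was 5.02 (4.77 to 5.28). ZEB2, its paralog, stood at 0.819, 0.811, 1.20 and 1.28 RPKM in the same order (log2 difference -0.30, SE 0.095, limma adjusted p = 0.0257). The call for ZEB2 was lost with no filter on low values (limma adjusted p = 0.122).

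SNAI1, or Snail, a repressor of CDH1, stood at 1.91 (T24T BCUC-1), 2.05 (T24T vector), 3.21 (UMUC3 BCUC-1) and 3.76 RPKM (UMUC3 vector), with a log2 difference of -0.59 (SE 0.10, limma adjusted p = 0.0019). SNAI2, or Slug, had 15 and 20 reads in T24T, compared with 9 and 16 in UMUC3, and the interval of its ratio spanned 1 (0.848 to 2.54). VIM, the intermediate filament protein of mesenchymal cells, was abundant in both lines, at 87.0 and 82.9 RPKM in T24T (BCUC-1, vector) and 267 and 234 RPKM in UMUC3. Its log2 difference was -1.55 (SE 0.066, limma adjusted p = 4.76e-06). VIM shares 641 exon bases with the antisense gene VIM-AS1, which was listed at 65.0 to 207 RPKM, and without a statement that the counting used strand their reads cannot be told apart.

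Other listed EMT transcription factors did not move one way. Of 14 with a row 10 were tested, with 3 higher and 3 lower in T24T and 4 not passing, against 40.8% higher and 29.6% lower of all genes tested. ID1, an inhibitor of basic helix-loop-helix factors, was higher in T24T (log2 difference 1.05, limma adjusted p = 5.0e-05), its relative ID3 was lower (-1.49, 1.1e-05), and TCF3, a helix-loop-helix factor that represses CDH1, did not pass (0.18, 0.0733). Of 12 mesenchymal effectors 7 were tested, with 2 higher and 5 lower in T24T, against the same shares of all genes. SPARC, a secreted matrix protein, stood at 0.246 and 0.245 RPKM in T24T against 59.8 and 59.4 RPKM in UMUC3 (limma adjusted p = 2.96e-07), and AXL, a receptor tyrosine kinase, at 24.5 and 23.5 against 105 and 90.7 RPKM (limma adjusted p = 2.45e-06). CD44, a hyaluronan receptor, was close, at 72.0 and 68.1 against 62.5 and 60.6 RPKM (limma adjusted p = 0.034). Of the microRNA genes that target ZEB1 and ZEB2, the host gene MIR205HG alone had a row, at 0.236 and 0.224 RPKM in T24T and 0 reads in each UMUC3 library.

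BCUC-1 was next set against vector, the comparison for which the study was made. Over both lines, with the line as a term, 0 of the 21 genes tested passed limma at a Benjamini-Hochberg adjusted p of 0.05, as did 0 of all 15415 genes (0%). At an unadjusted p under 0.05 in limma there were 0 of the 21, against 4.23% of all genes. The smallest unadjusted p of the set was 0.0896 at VIM, with a log2 difference of 0.13 (SE 0.066), higher with BCUC-1 in 2 of 2 lines. With limma-voom on the recovered reads, 0 of the 21 passed after adjustment and 2 had an unadjusted p under 0.05, PKP2 (log2 difference 0.41) and CLDN4 (-0.48).

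Within a line no test was made, and the ratio of RPKM was taken where a gene had 20 or more reads over the pair of libraries. In T24T 26 of the 33 genes met that floor, and in UMUC3 22 did. The median ratio of BCUC-1 over vector was 0.982 in T24T and 1.01 in UMUC3, against 0.983 and 1.03 for all genes above the floor. Past 1.5-fold in T24T was 1 gene of the set, lower with BCUC-1, where 5.55% of all genes were past it (1.64% higher and 3.91% lower with BCUC-1). In UMUC3 1 gene was higher and 1 lower with BCUC-1, where 6.74% of all genes were past it (4.22% higher and 2.52% lower). Those counts are near the shares of all genes.

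**Figure D3:**
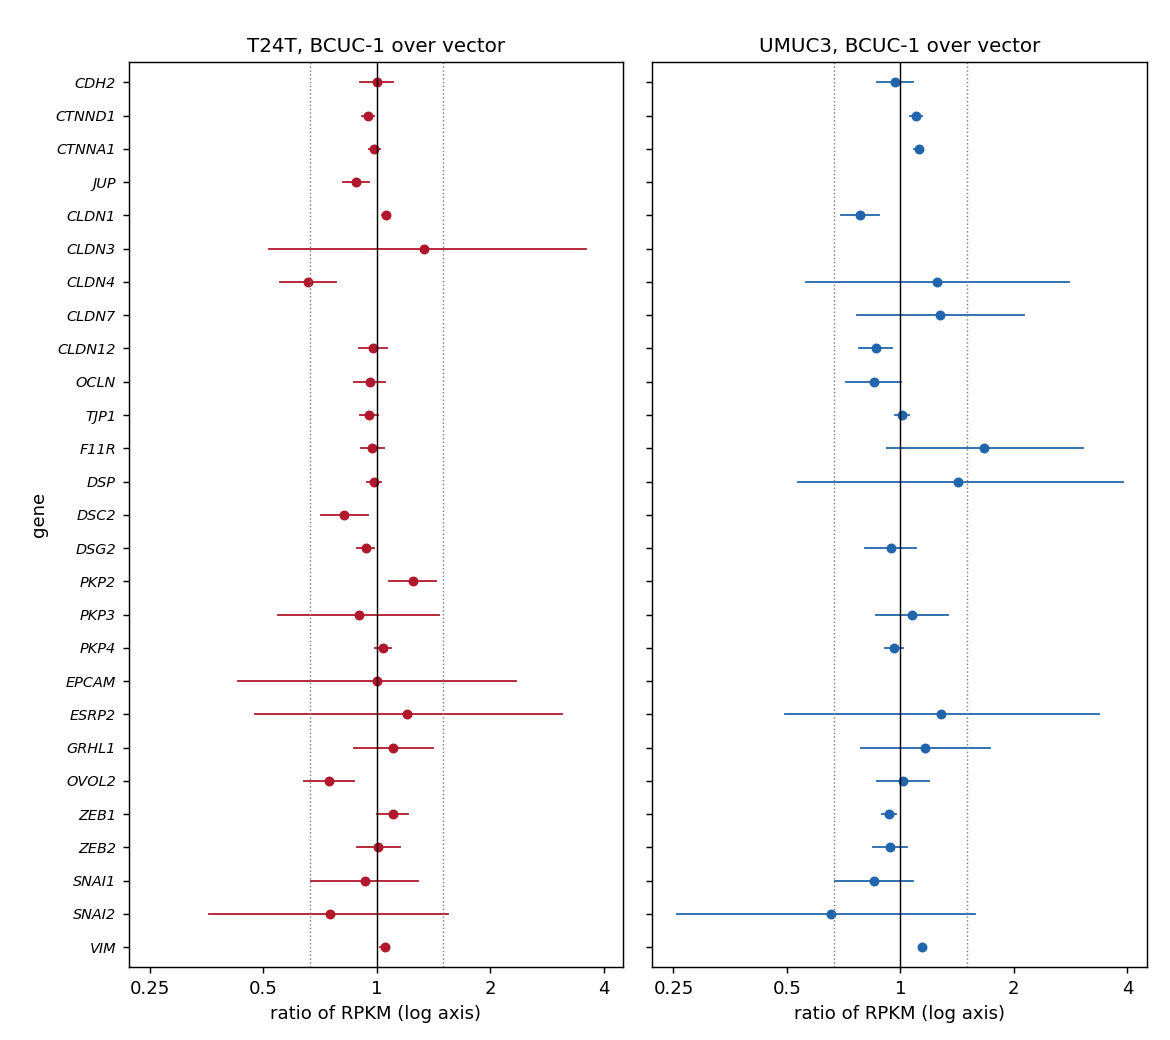
Ratio of RPKM, BCUC-1 over vector (log axis), in T24T (left) and UMUC3 (right) for genes of the set with 20 or more reads over the pair, with the exact 95% interval for counting error. The dotted lines mark 1.5-fold either way. CLDN4 in T24T lies at 0.659 and is past the line with an interval clear of 1, while F11R and SNAI2 in UMUC3 are past it with intervals across 1.

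The gene past 1.5-fold in T24T was CLDN4, at 2.05 RPKM (227 reads) with BCUC-1 and 3.11 RPKM (346 reads) with vector. Its ratio of 0.659 (0.555 to 0.781) lay at the edge of the rule, and was 0.672 with libraries scaled to equal medians and 0.671 with TMM factors, inside it. In UMUC3, where CLDN4 was low, it had 15 reads with BCUC-1 and 14 with vector, a ratio of 1.25 (0.562 to 2.79). In UMUC3 the genes past 1.5-fold were F11R, with 30 reads with BCUC-1 and 21 with vector (1.67, 0.922 to 3.06), and SNAI2, with 9 and 16 (0.656, 0.255 to 1.58). Neither difference was detectable at those counts.

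In T24T, counting intervals lay below 1 for 6 of the 26 genes above the floor, where 9.33% of all genes did. They were CLDN4, OVOL2 (0.747, 0.640 to 0.870), DSC2 (0.822, 0.711 to 0.949), JUP (0.882, 0.815 to 0.955), DSG2 (0.935, 0.888 to 0.985) and CTNND1 (0.949, 0.914 to 0.986). The intervals lay above 1 for 4 of the 26, against 4.73% of all genes, namely PKP2 (1.25, 1.08 to 1.44), ZEB1 (1.10, 1.01 to 1.21), CLDN1 (1.06, 1.04 to 1.08) and VIM (1.05, 1.02 to 1.08). The intervals of the desmosome genes DSP (ratio 0.984), PKP3 (0.898) and PKP4 (1.04) spanned 1. Among the other desmosome genes, with JUP counted, the PKP2 interval lay above 1 and those of DSC2, DSG2 and JUP below it, in libraries without replicates. Abundant genes reach such intervals with small differences, because the interval narrows with reads and does not hold the spread between cultures.

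In UMUC3 the interval lay above 1 for 3 of the 22 genes above the floor, against 18.2% of all genes, and below 1 for 3, against 12.6%. Those above were VIM (1.14, 1.13 to 1.16), CTNNA1 (1.12, 1.09 to 1.15) and CTNND1 (1.10, 1.06 to 1.14). Those below were CLDN1, at 5.74 RPKM with BCUC-1 and 7.35 RPKM with vector (0.782, 0.695 to 0.879), CLDN12 (0.860, 0.779 to 0.950) and ZEB1 (0.933, 0.896 to 0.972). CDH2 stood at 0.967 (0.866 to 1.08) in UMUC3 and at 1.00 (0.904 to 1.11) in T24T.

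The UMUC3 ratios moved with base composition. Across all genes above the floor the log2 ratio in UMUC3 had a Spearman rho of 0.508 with GC content over 14017 genes, which share 2 libraries, and of 0.0015 over 14290 genes in T24T. For the genes of the set it was 0.636 over 22 genes in UMUC3 and -0.0728 over 26 in T24T. At a GC content under 45%, a limit chosen after the values were seen, 8 of 10 genes of the set had a UMUC3 ratio below 1, and at or above it 2 of 12 did. All genes went the same way. In bins of GC content, their median UMUC3 ratio was 0.875 to 0.987 at 35.6% to 43.5% GC. It was 1.01 to 1.18 at 44.7% to 65.6% GC. The share of all genes below 1 on each side of the limit was not counted. With the GC trend of all genes removed, the UMUC3 ratio of ZEB1 (38.5% GC) was 1.00, of ZEB2 (39.1% GC) 1.01, of CLDN12 (38.1% GC) 0.943, of CLDN1 (41.5% GC) 0.823, of CTNND1 (46.6% GC) 1.10 and of VIM (46.9% GC) 1.14. The part of base composition in the individual ratios was not tested.

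**Figure D4:**
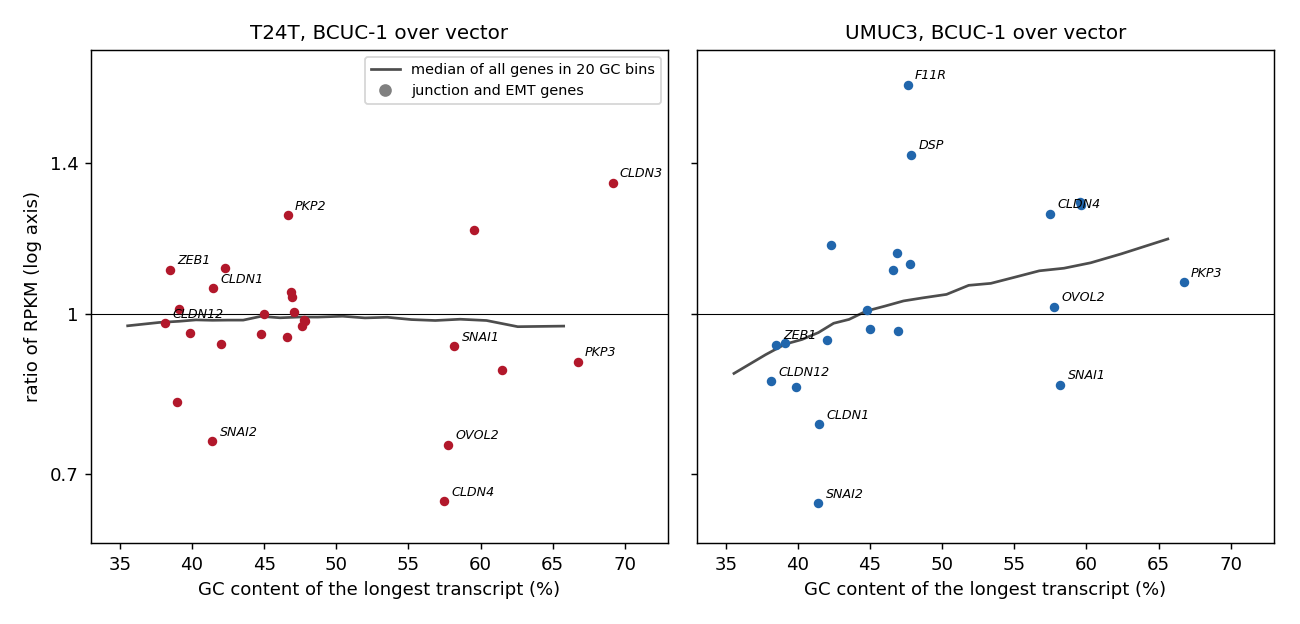
Ratio of RPKM, BCUC-1 over vector (log axis), against the GC content of the longest transcript in T24T (left) and UMUC3 (right). Points are the genes of the set with 20 or more reads over the pair, and the line is the median ratio of all genes in 20 bins of GC content. In UMUC3 the median of all genes climbs with GC content from 0.875 in the first bin to 1.18 in the last, and in T24T it stays between 0.971 and 0.994.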

How the data were processed

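Total RNA was isolated with a column kit and sequenced with standard Illumina libraries, per the labels' protocols. Per the submitters' processing notes Bowtie 0.12.2 was used, with its role, the genome build and the counting tool not given in the sources used here. The authors deposited RPKM per gene and library, with a gene Length in bases (unit "other") per the file headers. For 100% of genes, RPKM times length gave whole reads (tolerance 0.001 reads), so reads were recovered. On them limma-voom called 11192 genes between the lines and 3 for BCUC-1. Of 22652 genes with a single GENCODE 29 match, 96.7% shared its start or end, so spans are on GRCh38. Spreadsheet dates had altered 27 names, and 2 symbols were repeated. These stayed in the fits unnamed.

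Columns were assigned to groups by title. Limma 3.58.1 with an intensity trend (R 4.3.3) was fitted on log2(RPKM + 1) with line and treatment, for genes with at least 1 RPKM in 2 libraries. Benjamini-Hochberg adjustment ran over all genes tested, two-sided. Within lines, ratios of RPKM carry exact Clopper-Pearson 95% intervals. Alternatives were limma-voom with TMM factors, other scalings, filters and pseudocounts, and removal of the GC trend in 20 bins (GC content of the longest GENCODE 29 transcript, had for 69.1% of genes and all 33 of the set). The fits and intervals were tested on simulated data. All 37 genes of the set were to be named, with the 3 genes of highest mean RPKM of each further list. The set and the lists were chosen with earlier results of these data known.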

Additional observations from a re-analysis of the deposited data

Results flagged for a closer look

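For 3 genes the ratio of BCUC-1 over vector lay on opposite sides of 1 in the 2 lines, each with a counting interval clear of 1. The share of all genes that did so was not counted. Of all genes, the interval lay above 1 for 4.73% and below 1 for 9.33% in T24T. In UMUC3 these shares were 18.2% and 12.6%. With 1 library a group the difference between the lines was not tested. CLDN1 had a ratio of 1.06 in T24T and 0.782 in UMUC3 (0.823 with the GC trend removed). CTNND1 had a ratio of 0.949 in T24T and 1.10 in UMUC3. ZEB1 had a ratio of 1.10 in T24T and 0.933 in UMUC3, and its UMUC3 ratio was 1.00 with the GC trend removed.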

How the results depend on the processing

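The labels give no replicate numbers, so no block by number was fitted. The line term sets BCUC-1 beside vector within each line, and without it 0 genes were called for BCUC-1. Genes called between the lines numbered 10847, and 6780 at a floor of 5 RPKM, where fewer genes are tested. The further listed genes called numbered 39, and 25 at that floor. Genes of the set called were 19, and 13 to 20 under the other settings. The difference between the lines changed sign for CTNND1 with equal medians (-0.036), limma-voom (-0.072) and the BCUC-1 libraries alone (-0.045), and for OVOL2 with the BCUC-1 libraries alone (-0.025), neither of which had passed the test. CDH2 lost its call under 4 settings, CLDN12 under 2 and ZEB2 under 1. The other genes of the set tested kept direction and call wherever they were tested. For BCUC-1 over both lines, genes called were 0, and 1 with a pseudocount of 0.1, 60 at 5 RPKM, 3 with limma-voom and 7 with the GC trend removed, with 0 of the set in each. Genes past 1.5-fold numbered 992 in T24T and 1181 in UMUC3. They were 98 and 192 with 100 or more reads over the pair, 312 and 383 with at least 1 RPKM in a library and on log2(RPKM + 1) together, and 606 and 659 with the GC trend removed, where fewer genes have a GC content. Genes of the set past it in T24T were 1, and 0 under that joint setting, with equal medians and with TMM factors. In UMUC3 they were 2, and 0 at 100 reads and under the joint setting, whose floor of 1 RPKM F11R and SNAI2 do not reach, and 1 with the GC trend removed. A count model on the recovered reads (edgeR) was fitted at first and is not reported, since the deposited unit is RPKM. Differences in CDH1, CDH3, RAB25 and ST14 were not detectable at this depth.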

Other observations

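CLDN1 and CLDN16, which had the highest levels of the listed claudins in T24T, are neighbours on chromosome 3. Their spans, on opposite strands, lie 66 bases apart, with CLDN1 from 190305701 to 190322475 on the minus strand and CLDN16 from 190322541 to 190412143 on the plus strand. CLDN16 had 2849 and 2885 reads in T24T BCUC-1 and T24T vector, and CLDN1 had 16986 and 16102. The nearest genes that reached 1 RPKM in a library were less far apart between the lines. P3H2, 183264 bases from CLDN1, stood at 10.0 and 9.63 RPKM in T24T (BCUC-1, vector) and 6.38 and 6.79 RPKM in UMUC3. IL1RAP, 191576 bases away, stood at 1.42 and 1.36 RPKM in T24T and 0.403 and 0.473 RPKM in UMUC3.

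Chosen after their values were seen, LSR and MARVELD2, proteins of tricellular tight junctions, stood at 10.2 and 9.46 RPKM and at 5.23 and 5.42 RPKM in T24T (BCUC-1, vector), against 0.362 and 0.233 RPKM and 0.0449 and 0.0231 RPKM in UMUC3. These T24T libraries, with transcripts of tricellular, tight junction and desmosome proteins, held 1 read of CDH1 each.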
